A study of Vitis vinifera with 171 samples.

Results

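The gene grip22 (VIT_06s0004g02560) encodes a grape ripening-induced protein, and its transcript level was followed in the pericarp of Corvina berries over all 57 combinations of vineyard, year and stage, which were measured on 171 arrays. The deposited values carry probe numbers and no gene names, so the gene was found by its values: the 33 triplicate means that the study lists for it in 2008 were compared with every rebuilt set of consecutive probes. A single set of 4 neighbouring gene probes matched (Pearson's r = 0.998, median polish), numbered VitusP00216336, VitusP00216343, VitusP00216344 and VitusP00216345, and the next set reached r = 0.700. It was 1 of 29,543 probe sets. The probes were thus chosen by these 2008 values, and the study had listed the gene for differences between vineyards in 2008, so the 2008 levels are described here without a test. Contrasts were tested on the 2006 and 2007 berries only.

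Proteins named grip were first described from transcripts that accumulate in grape berries as they ripen. The grip22 protein belongs to the kiwellin family, small cysteine-rich secreted proteins that are abundant in ripe kiwifruit, where kiwellin is a known allergen. Veraison is the onset of ripening, when the berry softens and begins to accumulate sugar and colour. In the RefSeq annotation the gene carries the symbol GRIP22 and lies on chromosome 6. No coordinates are given, because that assembly differs from the genome annotation for which the array was made.

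All samples came from Vitis vinifera cultivar Corvina clone 48 and were whole berries without seeds, sampled at veraison, mid-ripening and harvest. In 2008 they came from 11 vineyards of the Verona region, namely BA, CS, GIV and VM in Bardolino, AM, CC and PM in Soave, and BM, FA, MN and PSP in Valpolicella. The vineyards AM, CS, MN and PSP were also sampled in 2006 and 2007, of which the study describes the latter as having had an exceptionally warm spring. Every group had 3 biological replicates, each on a separate array, and vineyards were not replicated within a site. Levels are log2 of the mean intensity of the 4 probes, so a difference of 1 is a 2-fold difference in fluorescence.

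A pair of groups stood apart from the rest before any test. The veraison berries of PSP and of MN in 2007 had the lowest median correlations with the other groups over all probe sets (r = 0.883 and r = 0.903), and on the PSP arrays 94.9% to 97.0% of probe sets lay above the 95th percentile of the random control probes, against a median of 74.1% over all arrays. Within groups, replicate arrays correlated at r = 0.937 to 0.996, and no pair of arrays held identical values.

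The transcript gave a strong signal in nearly every group. Over all arrays the median level was 13.93, which corresponds to an intensity of 15,612. The signal exceeded the 95th percentile of the random probes on 170 of 171 arrays. The samples were whole pericarp, in which fewer cells of a type and less RNA per cell cannot be told apart. Of the 57 group means, 51 lay between 13 and 15, 1 lay above 15 and 5 lay below 13. The pooled SD of replicates was 0.28. In the order of the 57 means, only 4 of the 56 gaps between neighbours exceeded that SD, so most neighbours in the order did not differ beyond their spread. The highest mean was that of CS at mid-ripening in 2006 (15.07 ± 0.11, SD, n = 3). The 4 lowest were AM at harvest (12.75), PSP at harvest (11.96), PSP at veraison (11.28) and MN at veraison (6.78), all of 2007.

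In 2006 the level was already high at veraison. It was 14.15, 14.02 and 13.98 on the 3 arrays of AM and 14.56, 14.46 and 14.92 on those of CS. MN was lowest with 13.54, 12.82 and 13.09, and PSP had 14.06, 13.86 and 14.10. At mid-ripening the arrays read 14.59, 14.68 and 14.74 in AM, 15.17, 15.08 and 14.96 in CS, 14.51, 14.37 and 14.35 in MN, and 14.28, 14.21 and 14.32 in PSP. In each of the 4 vineyards all mid-ripening arrays lay above all veraison arrays. At harvest they read 14.43, 14.15 and 14.19 in AM, 14.64, 14.76 and 14.85 in CS, 14.10, 14.12 and 14.28 in MN, and 13.71, 13.71 and 13.65 in PSP. All harvest arrays of a vineyard lay below its mid-ripening arrays. How many of all probe sets separated in this way was not counted. The rise to mid-ripening was 1.26 in MN (SE 0.24, limma adjusted p = 1.95e-05) and 0.63 in AM (SE 0.24, limma adjusted p = 0.0348), steps for which 39.1% and 34.8% of all probe sets passed the same threshold. The AM call was lost without replicate A (adjusted p = 0.0784) or without replicate C (adjusted p = 0.277). The AM estimate stayed between 0.56 and 0.72 when 1 replicate was left out. All vineyard contrasts share an error pooled over the 24 groups of 2006 and 2007, so a call can change with the spread in other groups. The largest SD of replicates was 1.03, in MN at veraison of 2007, against a median of 0.17 over the 57 groups. In CS and PSP the steps were 0.43 and 0.26 and did not pass the threshold (limma adjusted p = 0.165 and 0.412). None of the 4 steps from mid-ripening to harvest, from -0.24 to -0.58, passed it, although that of PSP did without replicate B (adjusted p = 0.0397). Over the 16 stage steps of 2006 and 2007, between 5.64% and 52% of all probe sets were called.

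With the 4 vineyards as the replicates of a year and stage, the 2006 mean was 13.96 ± 0.61 at veraison (SD, n = 4), 14.61 ± 0.35 at mid-ripening and 14.22 ± 0.44 at harvest. The step to mid-ripening was 0.64 (SE 0.87, limma adjusted p = 0.708), and 13.7% of all probe sets passed the threshold for it. The step to harvest was -0.39 (SE 0.87, limma adjusted p = 1.00), for which 0.108% passed. The step to mid-ripening was thus positive in 4 of 4 vineyards but smaller than its SE of 0.87. That SE was pooled over both years and includes the spread at veraison of 2007 (SD 3.24), so it exceeds the spread between vineyards in 2006. With AM and CS alone, chosen after the data were seen, the step was 0.53 (SE 0.21, limma adjusted p = 0.170). The name of the gene as ripening-induced was checked against these levels: every veraison array of 2006 already read 12.82 or more, and stages before veraison were not analysed here.

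In 2007 the vineyards diverged at veraison. The level was 13.21, 13.42 and 13.82 on the arrays of AM and 14.20, 13.81 and 13.47 on those of CS. In PSP it was 11.23, 11.50 and 11.12, below every array of AM and CS. In MN it was 6.08, 7.96 and 6.29, and only 2 of these 3 arrays exceeded the 95th percentile of their random probes. By mid-ripening all 4 vineyards were high, with 13.75, 13.87 and 13.86 in AM, 13.85, 14.06 and 13.97 in CS, 13.64, 13.99 and 13.91 in MN, and 14.62, 14.65 and 14.67 in PSP. The groups AM, CS and MN overlapped at this stage, and PSP lay above them all. At harvest the arrays read 12.72, 12.93 and 12.59 in AM, 13.41, 14.00 and 13.80 in CS, 13.21, 14.27 and 13.46 in MN, and 11.99, 12.01 and 11.88 in PSP.

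**Figure D1:**
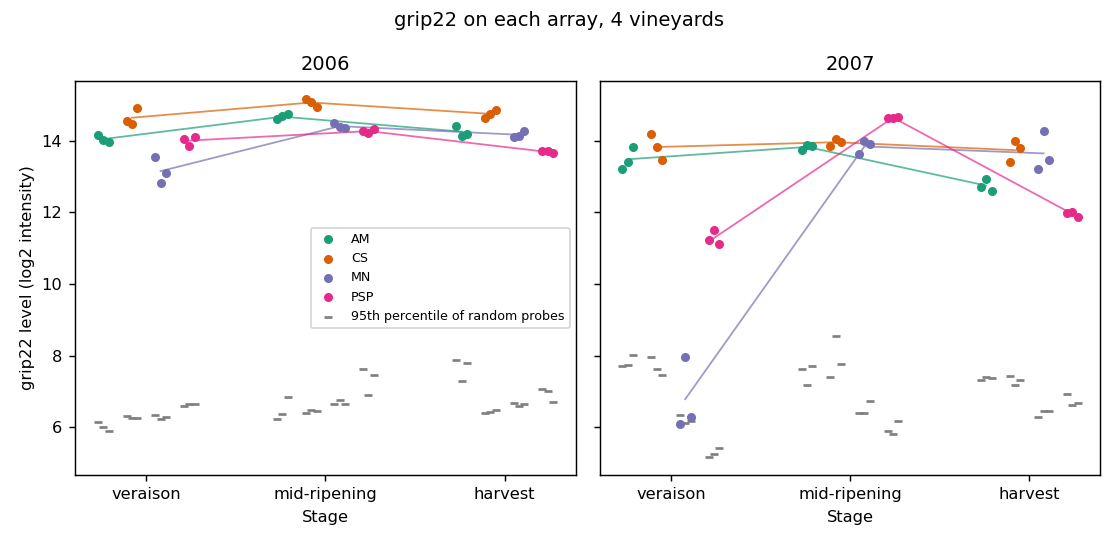
Level of grip22 (log2 intensity, vertical axis) on each array at the 3 stages (horizontal axis) in 2006 (left) and 2007 (right). Points are single arrays coloured by vineyard, lines join the means of 3 arrays, and grey dashes give the 95th percentile of the random probes on the same array. In 2006 all arrays lie between 12.82 and 15.17, while in 2007 MN at veraison falls to between 6.08 and 7.96 and PSP is low at veraison and at harvest.

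The rise from veraison to mid-ripening in 2007 was 7.06 in MN (SE 0.24, limma adjusted p = 8.64e-31), a difference of 134-fold between the group means, and 3.37 in PSP (SE 0.24, limma adjusted p = 5.51e-17), a 10.3-fold difference. For these steps 44.5% and 52% of all probe sets passed the threshold. The SE of 0.24 is the pooled one and understates the spread of MN at veraison (SD 1.03). This holds for every contrast with that group. Because 1 of the 3 MN veraison arrays was not above its random probes, the MN difference is a bound: with each veraison array set to the higher of its random-probe level and its own value, mid-ripening was at least 126-fold higher, or 6.98 on the log2 scale. In AM and CS the same step was 0.35 and 0.13 (limma adjusted p = 0.283 and 0.683), with overlapping arrays. From mid-ripening to harvest the level fell by 2.69 in PSP (SE 0.24, limma adjusted p = 4.74e-13), where all harvest arrays lay more than 2 units below the mid-ripening arrays, and by 1.08 in AM (SE 0.24, limma adjusted p = 0.000387). Of all probe sets, 34.3% and 25.8% passed for these steps. The AM call was lost without replicate C (adjusted p = 0.0522). The steps of -0.22 in CS and -0.20 in MN did not pass (limma adjusted p = 0.594 and 0.583).

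The estimated step to mid-ripening was positive in 8 of 8 vineyard-years of 2006 and 2007 and passed the threshold in 4, and the step to harvest was negative in 8 of 8 and passed in 2. The difference of the steps between the years was tested vineyard by vineyard. The step to mid-ripening was 5.80 larger in 2007 than in 2006 in MN (SE 0.34, limma adjusted p = 2.67e-20) and 3.10 larger in PSP (SE 0.34, limma adjusted p = 2.79e-10), with 30.5% and 30.3% of all probe sets past the threshold. With the same floor under MN at veraison of 2007, the MN difference was at least 5.72. In AM and CS it differed by -0.28 and -0.29 (limma adjusted p = 0.670 and 0.540). The step to harvest differed by -2.11 in PSP (SE 0.34, limma adjusted p = 1.15e-05, 11.7% of probe sets called), and the other 3 differences, from -0.66 to 0.10, did not pass.

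Over the 4 vineyards together, the 2007 mean was 11.34 ± 3.24 at veraison (SD, n = 4), 14.07 ± 0.39 at mid-ripening and 13.02 ± 0.84 at harvest. The step to mid-ripening was 2.73 (SE 0.87, limma adjusted p = 0.0505) and lay just outside the threshold, which 10.9% of all probe sets passed. It was 0.24 with AM and CS alone (limma adjusted p = 0.574). The step to harvest was -1.05 (SE 0.87, limma adjusted p = 0.666), with 2.79% of probe sets called. The difference of the step to mid-ripening between the years was 2.08 (SE 1.23, limma adjusted p = 0.527, 0.636% of probe sets called). The large steps of MN and PSP were thus not shared by the other vineyards, and the spread between vineyards set the error of the mean.

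The comparison of 2007 with 2006 asks whether the level differed between the years at the same labelled stage. The study considered the samples evenly ripe at each stage. Its mean °Brix, a measure of sugar, was lower in 2007 in all 4 vineyards at mid-ripening and harvest, while total acidity went both ways. At veraison °Brix was not measured. The part of ripeness in the year differences was not tested. The grip22 level was lower in 2007 in 4 of 4 vineyards at veraison, in 3 of 4 at mid-ripening and in 4 of 4 at harvest. At veraison the mean difference was -2.62 (SE 0.87, limma adjusted p = 0.0491, n = 4 vineyards a year), and 15% of all probe sets passed the threshold, with 8.12% of all probe sets lower in 2007. This call was lost whichever vineyard was left out (adjusted p = 0.0556 without MN to 0.179 without PSP) and without replicate A (0.0597) or C (0.0574), and the exact two-sided permutation test of the 4 within-vineyard differences gave p = 0.125, the smallest it can give with 4 pairs, so that this test cannot pass the threshold. Exchanging the 8 means without regard to vineyard gave an exact permutation p = 0.143, where 0.0286 is the smallest possible. At mid-ripening the difference was -0.54 (SE 0.87, limma adjusted p = 0.736, exact paired permutation p = 0.25, unpaired 0.0857), with 4.44% of probe sets called, and at harvest it was -1.19 (SE 0.87, limma adjusted p = 0.518, exact paired permutation p = 0.125, unpaired 0.0571), with 0.206% called.

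Within vineyards, 9 of 12 year differences passed the threshold and all 9 were negative, against 14.3% to 60.7% of all probe sets called in the same contrasts. At veraison the differences were -0.56 in AM, -0.82 in CS, -6.37 in MN and -2.72 in PSP (SE 0.24, limma adjusted p = 0.0438, 0.00311, 1.15e-28 and 5.72e-14), and 51%, 53.8%, 45.2% and 58.2% of all probe sets were called. With the floor under MN in 2007, its level in 2006 was higher by at least 6.29. The arrays of the years did not overlap at this stage in any of the 4 vineyards, but the share of all probe sets without overlap was not counted. At mid-ripening the differences were -0.84 in AM and -1.11 in CS (limma adjusted p = 0.00267 and 7.81e-05, with 49.1% and 60.7% of probe sets called), while that in MN was -0.57 and that in PSP 0.38 (limma adjusted p = 0.0528 and 0.209, with 40.2% and 41.7% called). At harvest they were -1.51 in AM, -1.01 in CS and -1.73 in PSP (limma adjusted p = 5.14e-07, 0.000320 and 2.63e-07, with 51.1%, 53.1% and 22.5% called), and the difference in MN was -0.52 (limma adjusted p = 0.139, with 14.3% called). Calls were lost at veraison in AM without replicate A (adjusted p = 0.332) or C (0.0761) or with slide as a random block (0.143) and in CS without replicate C (0.240), and at mid-ripening in AM without replicate C (0.0604). Without replicate B, the differences of MN at mid-ripening and harvest passed (adjusted p = 0.0142 and 0.00837). A fit of AM and CS alone, chosen after the data were seen, gave differences of -0.69, -0.98 and -1.26 at the 3 stages (limma adjusted p = 0.0469, 0.0129 and 0.00727), for which 25.4%, 30.7% and 24.5% of probe sets were called.

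**Figure D2:**
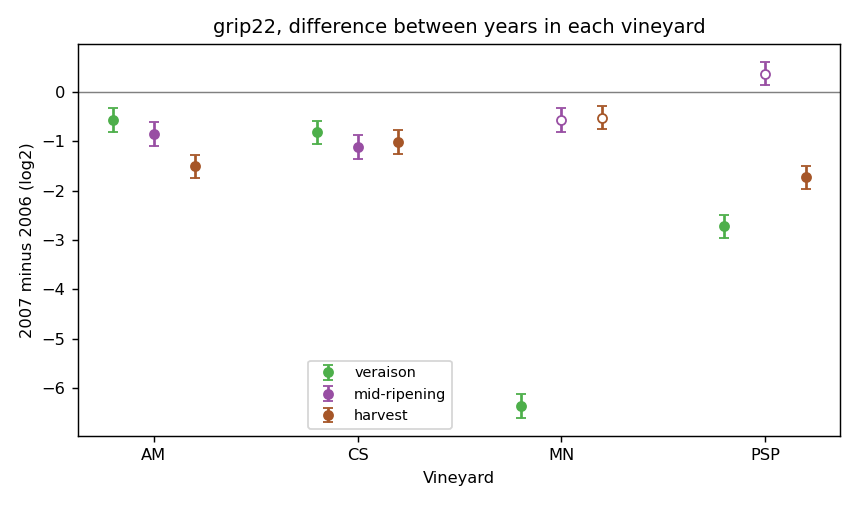
Difference of grip22 between 2007 and 2006 (log2, vertical axis) in each vineyard (horizontal axis), coloured by stage. Points are differences of means of 3 arrays with the standard error of the limma fit as bars, filled where the adjusted p was under 0.05; 11 of 12 lie below 0, and the largest are MN (-6.37) and PSP (-2.72) at veraison.

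Slides could be held constant for part of these comparisons. The 3 PSP veraison arrays of 2007 shared a slide with all 9 PSP arrays of 2006, so that the veraison difference of -2.72 was measured within a slide. The 3 MN veraison arrays of 2007 shared a slide with 2 MN mid-ripening arrays of the same year, and within it the step was 7.17. On that slide an AM mid-ripening array of 2006 read 14.74. In PSP, mid-ripening and harvest arrays of 2007 lay on slides of their own, where slide and stage cannot be told apart. In AM, CS and MN no slide held arrays of both years from the same vineyard. Apart from PSP at veraison, slide and year thus cannot be told apart in the year differences.

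The vineyards differed at each stage of both years. In 2006, CS was highest at all 3 stages. It exceeded MN by 1.49 at veraison (limma F test over the 4 vineyards, adjusted p = 1.32e-05, 53.5% of probe sets called), and PSP by 0.80 at mid-ripening (adjusted p = 0.0194, 51.8% called) and by 1.06 at harvest (adjusted p = 0.00230, 52.2% called). In 2007 the range was 7.04 at veraison, from CS to MN, and at least 6.96 with the floor under MN (adjusted p = 1.69e-31, 87% called), 0.82 at mid-ripening, from PSP to AM (adjusted p = 0.00441, 78.3% called), and 1.78 at harvest, from CS to PSP (adjusted p = 3.97e-09, 70.8% called). With slide as a random block the calls at mid-ripening of both years and at harvest of 2006 were lost (adjusted p = 0.235, 0.0635 and 0.122). The calls at mid-ripening of both years were also lost without replicate A (adjusted p = 0.153 in 2006 and 0.0718 in 2007) or C (0.166 and 0.0979), and that at harvest of 2006 without replicate C (0.121). Over the 36 vineyard pairs tested in these years, 19 differed past the threshold, while 12% to 66.7% of all probe sets were called in the same contrasts. The difference of MN from CS at veraison was -1.49 in 2006 and -7.04 in 2007 (limma adjusted p = 2.52e-06 and 1.45e-30, with 23% and 59.9% of probe sets called). That of PSP from CS at harvest was -1.06 in 2006 and -1.78 in 2007 (limma adjusted p = 0.00104 and 1.38e-08, with 15.6% and 51.5% called). At mid-ripening the difference of PSP from CS was -0.80 in 2006 and 0.69 in 2007 (limma adjusted p = 0.0118 and 0.0124, with 20.9% and 56.1% called).

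The 4 probes gave the same order of the veraison groups of 2007 at its lower end. In MN at veraison of 2007 the means were 5.06, 5.57, 7.49 and 7.46 for probes 1 to 4, and in PSP they were 9.05, 10.51, 12.09 and 11.81. Each probe was lower in MN than in PSP and lower in PSP than in AM and CS. The probes differed in how far they moved. From PSP at veraison to PSP at mid-ripening the mean rose from 9.05 to 13.80 on probe 1 and from 12.09 to 15.08 on probe 3. Over the 171 arrays the probes correlated in pairs at r = 0.851 to 0.955, and without the MN and PSP veraison arrays of 2007 at r = 0.747 to 0.952. The brightest value of any of the 4 probes was 44,051, under the maximum of 63,131 on the arrays.

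**Figure D3:**
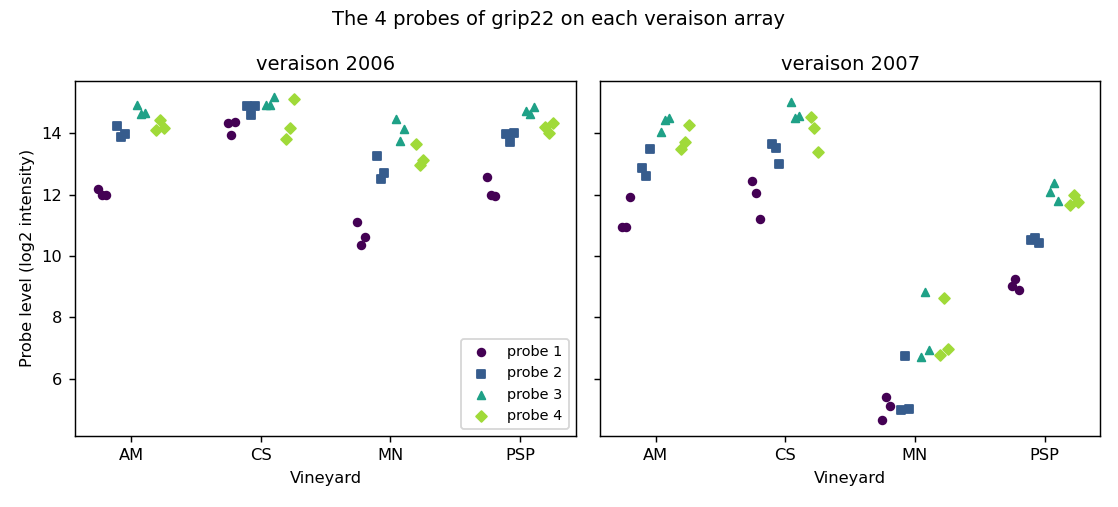
Level of each of the 4 grip22 probes (log2 intensity, vertical axis) on the veraison arrays of 4 vineyards (horizontal axis) in 2006 (left) and 2007 (right). Each point is a probe on a single array; in 2007 all 4 probes are lowest in MN, with means of 5.06 to 7.49, and next lowest in PSP, with means of 9.05 to 12.09.

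The marker genes of berry stage and tissue were read beside the low levels of 2007, and only some of them stood apart with grip22. VvMYBA1 (VIT_02s0033g00440), the regulator of anthocyanin colour, had a mean of 4.95 in MN at veraison of 2007, below the random-probe level on 3 of 3 arrays, while its lowest mean in the 55 groups other than the MN and PSP veraison groups of 2007 was 8.22. In PSP it was 9.56, within the range of those groups. The photosystem genes PSAO (VIT_06s0080g00920) and PSBQ (VIT_00s0904g00010), active in green berries, had their highest means of the 57 groups in these berries, with 14.46 and 13.72 in MN and 14.06 and 13.98 in PSP, against at most 13.90 and 13.40 elsewhere. Of the ripe-berry genes, PR10 (VIT_05s0077g01530) had 6.84 in MN and 9.40 in PSP, and PR1 (VIT_03s0088g00710) had 7.50 and 8.75. These lay within the ranges of the other groups over all stages, 4.28 to 13.67 and 4.95 to 14.14. Among the veraison groups alone, PR10 was highest in PSP of 2007, against at most 5.15 in 2006 and 7.88 in 2008. PR1 in PSP of 2007 (8.7545) was level with its highest veraison mean of 2008 (8.7550). In PSP at harvest of 2007, where grip22 was also low, VvMYBA1 had 11.31, PSAO 9.95 and PSBQ 10.06, within their ranges over all stages. Among the harvest groups alone, PSBQ was highest in PSP of 2007, against at most 9.65 in 2006 and 9.83 in 2008. PSAO reached 10.05 at harvest of 2006, and VvMYBA1 reached 11.52 at harvest of 2008. The seed genes steroleosin-B (VIT_18s0157g00200) and legumin (VIT_12s0034g01950) had 11.44 and 8.44 in MN and 10.37 and 8.52 in PSP, within the ranges of the other groups. Legumin reached 12.51 in PSP at mid-ripening of 2007. Both genes were above the random-probe level on 160 arrays or more, in samples labelled as pericarp. Steroleosin-B stayed between 10.15 and 11.46 in all 57 groups, and the legumin medians of 2008 rose over the stages from 8.71 to 10.98 and 12.03. Whether these signals came from seed tissue was not tested. The part of stage and tissue in the grip22 levels was not tested.

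In 2008 the level at veraison was high in all 11 vineyards, and the stage at which it peaked varied. The stage means over the vineyards were 13.88 ± 0.57 at veraison (SD, n = 11), 13.88 ± 0.54 at mid-ripening and 13.81 ± 0.44 at harvest. The highest of the 3 stages was veraison in 6 vineyards, mid-ripening in 4 and harvest in 1. The step to mid-ripening ranged from -0.76 to 1.68 with a median of -0.13, and was positive in 4 of 11 vineyards. These steps are descriptions.

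BM, in Valpolicella, had the largest rise of 2008. Its veraison arrays read 12.96, 12.71 and 13.04, its mid-ripening arrays 14.76, 14.55 and 14.45 and its harvest arrays 14.22, 14.37 and 14.02. The veraison arrays lay below all the others, and all 9 shared a slide. BA, in Bardolino, was high throughout, with 14.77, 14.83 and 14.54 at veraison, 14.54, 14.63 and 14.56 at mid-ripening and 14.67, 14.57 and 14.77 at harvest. Its stage means stayed within 0.13 of each other. GIV, also in Bardolino, had the lowest mean over its stages (13.27) and read 13.35, 13.56 and 13.22 at veraison and 12.98, 13.00 and 13.27 at harvest. Every GIV array lay below every BA array.

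PSP fell over the 2008 season from 14.66, 14.61 and 14.50 at veraison to 14.06, 14.04 and 13.78 at mid-ripening and 13.71, 13.80 and 13.76 at harvest. The mid-ripening arrays lay below the veraison arrays, the reverse of the PSP arrays of 2006 and 2007. In AM the veraison arrays read 14.06, 14.11 and 14.15 and the mid-ripening arrays 14.01, 13.29 and 12.74. The AM mid-ripening replicates spread over more than 1 unit, as did those of FA, with 12.79, 13.55 and 14.11. MN read 13.66, 14.07 and 14.01 at veraison, far above its 2007 level and within the range of the other vineyards of 2008. Between the 3 areas, the means over vineyards were 13.85 in Bardolino, 13.92 in Soave and 13.90 in Valpolicella at veraison and 14.02, 13.42 and 14.08 at mid-ripening. Within Valpolicella alone the veraison means ran from 12.90 in BM to 14.59 in PSP. Averages over vineyards lie closer together than single vineyards by averaging alone, so these ranges do not compare areas with vineyards.

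**Figure D4:**
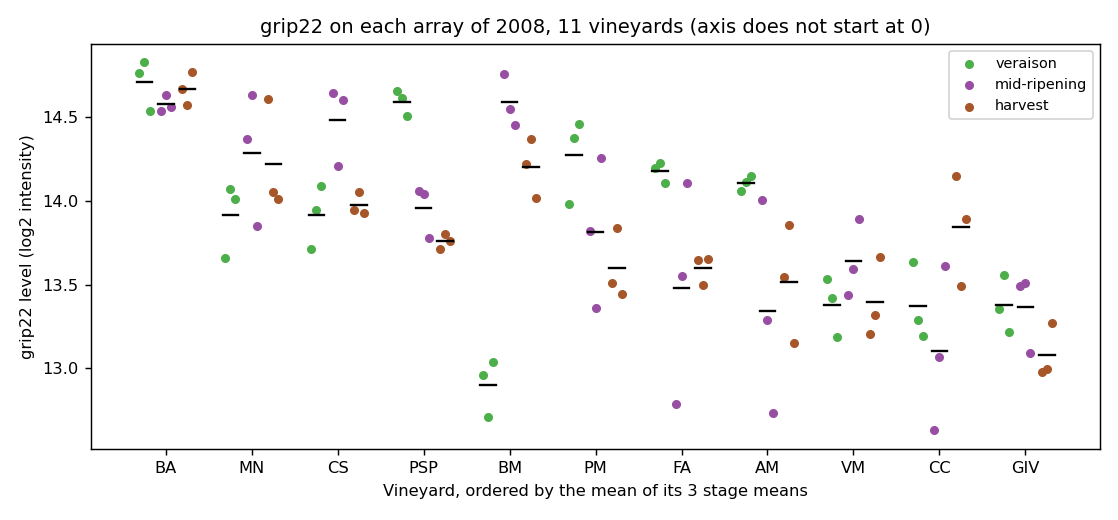
Level of grip22 (log2 intensity, vertical axis, not starting at 0) on each array of 2008 for 11 vineyards (horizontal axis), ordered by the mean of their stage means. Points are single arrays coloured by stage and black bars are means of 3 arrays; BA is high at all 3 stages, GIV is low, and BM rises from 12.90 at veraison to 14.59 at mid-ripening.

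Among the 5225 other probe sets that could be named, the genes with the profile most like that of grip22 over the 57 group means were ranked by Pearson's r, as a description. SCUTL2, a thaumatin-like gene (VIT_18s0001g11930), came first with r = 0.85. It had 8.27 in MN and 12.56 in PSP at veraison of 2007 and 13.84 and 14.33 at mid-ripening. XTH32 (VIT_06s0061g00550, r = 0.83), annotated as a xyloglucan endotransglucosylase/hydrolase of the kind that remodels cell walls, had 7.74 in MN at veraison of 2007 but 15.14 in PSP, close to its 15.54 at PSP mid-ripening. Next were VIT_10s0116g01340 (r = 0.83), VIT_05s0049g00520 (r = 0.78), the expansin EXPA8 (VIT_13s0067g02930, r = 0.78), a gene of a family that loosens cell walls, and VIT_11s0016g04920 (r = 0.78). A metallothionein (VIT_11s0052g00630, r = 0.76) and a 9-cis-epoxycarotenoid dioxygenase (VIT_02s0087g00930, r = 0.76), an enzyme of abscisic acid synthesis, completed the 8. The dioxygenase had 6.24 in MN and 9.70 in PSP at veraison of 2007, against 12.00 in AM and 12.15 in CS. All 8 genes had their lowest mean of the 57 groups in MN at veraison of 2007. The ranking itself favours such genes, because grip22 was by far lowest in that group.

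The lowest correlations were those of an allergen-annotated gene (VIT_06s0004g07880, r = -0.70), VIT_11s0016g02630 (r = -0.67), VIT_18s0001g00700 (r = -0.67) and a beta-1,3-galactosyltransferase (VIT_02s0025g02830, r = -0.66). All 4 had their highest mean in MN at veraison of 2007, which the ranking favours in the same way. The correlations of the named genes were smaller in size without 2 groups. Without MN and PSP at veraison of 2007, r fell to 0.25 for SCUTL2, 0.28 for XTH32, 0.15 for EXPA8 and 0.08 for the dioxygenase, and none of the 8 genes was among the first 8 over the other 55 means. Over the 33 means of 2008 alone, SCUTL2 had r = 0.45 and again none of the 8 was shared. Of the 4 lowest, VIT_18s0001g00700 had r = -0.31 over the 55 means and -0.57 in 2008, and VIT_06s0004g07880 had -0.35 and -0.48. VIT_11s0016g02630 had -0.28 and -0.35, and the galactosyltransferase -0.13 and -0.05. The highest r of any probe set over the 57 means was 0.90, for a set without a name. That set kept r = 0.57 over the 55 means and 0.60 in 2008.

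**Figure D5:**
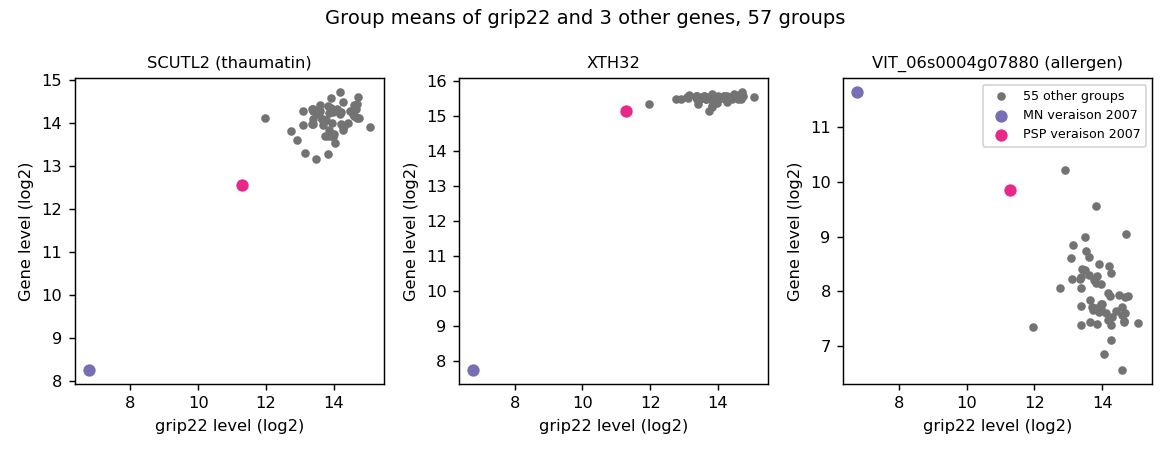
Group means of SCUTL2, XTH32 and the allergen-annotated gene VIT_06s0004g07880 (log2 intensity, vertical axes) against those of grip22 (log2 intensity, horizontal axes) in the 57 groups. Grey points are 55 groups, and the coloured points, MN and PSP at veraison of 2007, lie at the low end of grip22; MN stands far from the others in all 3 panels.

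Genes annotated with related terms were counted for context. Only genes listed in the study's datasets could be named, and most of these datasets list genes for differences between years, stages or vineyards on these arrays. Shares over all probe sets are thus not a matched background for the counts, which are descriptions. Beside grip22, 3 named genes carried a ripening term, 9 an allergen term and 24 a term for pathogenesis-related protein, thaumatin, osmotin or chitinase, among them SCUTL2. Of the ripening genes, the abscisic stress ripening protein ASR2 (VIT_18s0072g00380) was lower in 2007 than in 2006 at veraison, with a difference of -0.42 (SE 0.12, limma adjusted p = 0.0283). The DDTFR8 genes VIT_13s0047g00110 and VIT_18s0001g01940 had differences of 0.81 and 0.22 (limma adjusted p = 0.0932 and 0.564). The median of the 3 was 0.22, against 0.12 over all probe sets.

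Of the 9 allergen-annotated genes, 1 rose and none fell at veraison between 2006 and 2007, where 6.86% of all probe sets were called higher and 8.12% lower. The gene that rose was VIT_06s0004g07880, by 2.28 (SE 0.39, limma adjusted p = 0.00210). A Bet v I allergen gene (VIT_01s0011g05190) had a difference of 1.38 (SE 0.46, limma adjusted p = 0.0516). From veraison to mid-ripening of 2007, 2 of the 9 fell and none rose, against 6.03% and 4.85% of all probe sets. These were VIT_01s0011g05190, which fell by 3.01 (limma adjusted p = 0.000496), and VIT_06s0004g07880, which fell by 2.45 (limma adjusted p = 0.000687).

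Of the 24 defence-annotated genes, 13 rose and none fell from veraison to mid-ripening in 2006, where 5.67% of all probe sets were called higher and 7.98% lower. PR10 rose by 6.54 (SE 0.89, limma adjusted p = 8.43e-05) and PR1 (VIT_03s0088g00710) by 6.46 (SE 0.91, limma adjusted p = 0.000116). Their median step was 1.60, against 0.03 over all probe sets. In 2007, 5 rose and 1 fell over the same interval, against 4.85% higher and 6.03% lower over all probe sets, with a median of -0.32 against -0.04 over all, and a class IV chitinase (VIT_05s0094g00350) rose by 3.46 (SE 0.60, limma adjusted p = 0.00131). At mid-ripening 10 of the 24 were lower in 2007 than in 2006 and none was higher, against 2.12% and 2.33% of all probe sets, with differences of -6.45 for PR1 and -6.00 for PR10 (limma adjusted p = 0.00183 for each). The study itself lists PR10 and PR1 as genes that rise during ripening, so these counts partly reflect how the genes came to be named. For grip22 the year difference at mid-ripening was -0.54.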

How the data were processed

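The authors hybridized Cy3-labelled total RNA to 1-colour NimbleGen arrays, scanned them and deposited a linear intensity for each probe, and their processing notes name RMA. The deposited intensity values were used without further background correction. The 117,999 gene probes were cut into 29,543 probe sets by their numbers and by the correlation of neighbouring probes, 83 of them with fewer than 4 probes. Genes were named by matching median polish summaries to values listed in the study's datasets (r of 0.95 or more, or 0.99 over 12 columns, with a lead of 0.01), which named 5226 genes. In the dataset that lists grip22, 30 of 33 column headers named another sample, and columns were assigned by the values of genes named elsewhere. The authors' methods state that probe specificity was assessed for gene families, and it was not examined again in this re-analysis.

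For each gene the intensities of its probes were averaged on the linear scale and then taken to log2. The year and stage contrasts were fitted with limma 3.58.1 in R on 24 triplicate means with vineyard as a block, and the vineyard contrasts on 72 single arrays, with Benjamini-Hochberg adjustment over all 29,543 probe sets and a threshold of 0.05. P-values of vineyard contrasts hold for the sampled replicates of each vineyard. A screen for outlying vineyard means also covered 2008. The groups were taken from the labels, and 19 slides from the array descriptions. The number of arrays limits the precision. The rebuild of probe sets and the fits were tested on simulated data. Named genes were grip22, the 8 named genes with the highest and the 4 with the lowest correlation to it, all genes annotated as ripening, grip or kiwellin, and counts with the 2 largest differences for the allergen and defence lists. The gene, the lists and the tests were chosen with earlier results of these data known.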

Additional observations from a re-analysis of the deposited data

Results flagged for a closer look

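PSP stood apart from the other vineyards at mid-ripening of 2007. Its mean of 14.65 lay above those of AM, MN and CS, which ran from 13.83 to 13.96, and its gap to the nearest was 0.839 of the whole range, against a critical value of 0.829 for 4 values. The same screen was run on 12 sets of vineyard means, 6 of them of 2008, and this was the only one past the critical value, and chance alone passes it in about 1 set in 20.

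The step from veraison to mid-ripening differed between 2007 and 2006 by 5.80 in MN, or at least 5.72 with the random-probe floor under its veraison arrays, and by 3.10 in PSP, and the step from mid-ripening to harvest differed by -2.11 in PSP (limma adjusted p = 2.67e-20, 2.79e-10 and 1.15e-05). These differences kept their sign and stayed past the threshold under all 15 alternatives tried for them.

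The step from veraison to mid-ripening also ran in opposite directions between years with arrays that did not overlap. The step of 2008 minus that of 2006 was -1.39 in AM and -0.90 in PSP, and the step of 2008 minus that of 2007 was -4.00 in PSP. These differences with 2008 were not tested.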

How the results depend on the processing

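The replicate letters did not pair the samples of different groups: deviations of arrays with the same letter correlated at a mean of r = 0.0037, against -0.0019 for different letters, all 3 letters exceeded 0.1 in 5 of 276 group pairs, and 31 of 72 arrays were closest to their own letter. The replicate block, fitted on single arrays, gave 2.73 for the 2007 step to mid-ripening (adjusted p = 2.74e-06), -1.19 for the harvest year difference (0.0468) and 2.08 for the difference of the steps to mid-ripening (0.0170), and single arrays without it gave the same values (1.85e-06, 0.0428 and 0.0149). Both treat replicates of a vineyard as replicates of a year. Groups also share slides, and the consensus correlation within slides was 0.575 in the year and stage fit and 0.296 in the vineyard fit. With slide as a random block these were 2.30 (1.03e-05), -2.14 (0.00651) and 1.48 (0.0431), and the 2007 step to harvest was -1.21 (0.0303). The slide fit also used single arrays, so it too treats replicates of a vineyard as replicates of a year.

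The 2007 step to mid-ripening, just outside the threshold, passed it with the median of the probes (2.74, adjusted p = 0.0470), median polish (2.87, 0.0404), 50 added to the intensities (2.57, 0.0437), probe sets above the median level only (2.73, 0.0419), and probes 1, 2 and 4 alone (3.23, 3.12 and 2.52). The veraison year difference did not pass with quantile normalization (-2.61, 0.0527), probes 3 or 4 alone (-2.50 and -2.23), without AM, CS, MN or PSP (-3.30, -3.22, -1.37 and -2.58), in the exact permutation tests (-2.62, p = 0.143 unpaired and, added after the data were seen, 0.125 paired by vineyard), or without replicate A (0.0597) or C (0.0574). With AM and CS only, chosen after the data were seen, the year differences at mid-ripening and harvest (-0.98 and -1.26) passed, and the difference of the steps to mid-ripening turned to -0.29.

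Vineyard ranges lost their call with slide as a random block at mid-ripening and harvest of 2006 (0.80 and 1.06) and mid-ripening of 2007 (0.82), with probes 2 and 3 alone at mid-ripening of 2006 (0.81 and 0.39) and with probes 3 and 4 alone at mid-ripening of 2007 (0.47 and 0.69). Steps of single vineyards turned, all far from the threshold, with probe 3 alone for CS to harvest in 2006 (0.0308) and to mid-ripening in 2007 (-0.0239), and with probes 1 and 2 alone for MN to harvest in 2007 (0.26 and 0.0775). AM in 2006 lost its rise with probes 3 and 4 alone (0.35 and 0.59) and passed for its fall with probes 1 and 2 alone (-0.84 and -0.75). CS in 2006 passed for its rise with probe 4 alone (0.90), and PSP in 2006 for its fall with median polish (-0.69), 50 added (-0.58) and probes 1 and 2 alone (-0.91 and -0.83). Year contrasts turned with single probes for MN at mid-ripening (0.30, probe 4), for the step difference to mid-ripening in AM (0.0518, probe 3) and CS (0.22 and 0.0968, probes 1 and 2, and -0.67 to 0.0420 without 1 replicate), and for that to harvest in CS (-0.11 and -0.10, probes 2 and 3) and MN (-0.12 and -0.40, probes 3 and 4, and -0.20 to 0.26 without 1 replicate).

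Leaving out 1 replicate gave -2.87 to -2.48 for the veraison year difference, 0.75 to 0.88 and 0.99 to 1.13 for the vineyard ranges at mid-ripening and harvest of 2006, 0.79 to 0.87 at mid-ripening of 2007, 0.56 to 0.72 for the AM rise in 2006, -0.62 to -0.54 for the PSP fall in 2006, -1.15 to -0.99 for the AM fall in 2007, -0.0479 to 0.37 for the CS step in 2007, and 1.502 to 1.81 for the 2008 range at mid-ripening. The 2008 ranges over vineyards were 2.89 and 2.29 with probes 1 and 2 alone at veraison, 3.73, 2.60, 1.00 and 1.01 with probes 1 to 4 alone and 1.81 with median polish at mid-ripening, and 3.09, 2.02, 1.14 and 1.12 with probes 1 to 4 alone at harvest. Of the 8 most similar genes, 4 were shared with the means of 2006 and 2007 alone, 0 with those of 2008 alone and 0 with the 55 means. The cause was not tested for any of these changes. In MN at veraison of 2007 the signal lay close to the random probes, which limits how large its difference from other groups can be measured to be.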
